A study of Mus musculus with 12 samples.

Results

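F-box proteins are the interchangeable substrate receptors of SCF ubiquitin ligases. The F-box binds the adaptor Skp1, which joins it to the scaffold cullin Cul1 and the RING protein Rbx1, and the rest of the F-box protein holds the substrate that is to be ubiquitinated. The genes are named by that second region: Fbxl proteins carry leucine-rich repeats, Fbxw proteins carry WD40 repeats and Fbxo proteins carry another domain or none that is known. The genes described here are those of the count table whose symbol begins with Fbxl, Fbxo or Fbxw and a number, with Fbxw7, Fbxw11 and Fbxo11 left out by name. They are 75 of the 36255 genes of the table, 18 Fbxl, 35 Fbxo and 22 Fbxw genes.

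Poly(A) RNA-seq counts of 11 mouse embryo libraries were available, in 6 groups. The groups were Skp1aKO at 9.5 days post coitum (dpc, 2 libraries), Skp1acont at 9.5 dpc (2 libraries), Skp1acont PI at 9.5 dpc (1 library), wt PI at 9.5 dpc (2 libraries), wt at 9.5 dpc (2 libraries) and wt at 9.0 dpc (2 libraries). Each wt group has a lot 1 and a lot 2 library. The words "cont", "PI" and "lot" are used as the labels write them. All libraries also carry the tag "mb", which the labels do not spell out. No allele, Cre line or strain is given there. The source is labelled embryo, although ES cells and embryoid bodies are named in the series text, so what was sampled is not certain. Nothing in the labels assigns the libraries of 1 group to different embryos, so each p-value stands for library-to-library spread that may be technical. In bulk RNA, fewer cells of a type and less RNA per cell cannot be told apart.

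The libraries with a Skp1a label differed from the wt libraries in more than their label. Totals ran from 2320599 to 11607085 counts. Mitochondrial genes took 5.98% to 15.8% of counts in the 5 libraries with a Skp1a label, against 2.44% to 4.01% in the 6 wt libraries, and ribosomal protein genes took 3.10% to 8.56% against 12.1% to 15.4%. A background rate, the median CPM (the count scaled to library size) per kb of exon over 1770 genes of olfactory, vomeronasal and taste receptors, was 3.54 to 17.0 times the lowest library in the libraries with a Skp1a label and 1 to 2.09 times in wt. Skp1acont replicate 2 stood apart, with the lowest total and the highest mitochondrial share and background, so counts are also given without it. Erythroid markers, 11 genes, summed to 927 to 6443 CPM in the libraries with a Skp1a label and 9453 to 23713 CPM in wt, and 9 of the 11 were called lower in Skp1aKO against wt at 9.5 dpc. Head mesenchyme markers summed to 138 to 237 against 349 to 595 CPM. Endothelial markers summed to 657 to 1210 against 199 to 515 CPM, but a few genes carry that sum: of the 8, 1 was called higher and 4 lower in Skp1aKO against wt at 9.5 dpc, with a median log2 fold change of -1.50. Against wt at 9.5 dpc, the neural progenitor sum was 465 to 482 CPM in the libraries labelled Skp1aKO and 253 to 559 CPM in Skp1acont, against 1474 to 1671 CPM. The neuron sum was 201 to 375 and 207 to 461, against 678 to 765 CPM, and the trophoblast sum was 14.6 to 17.8 and 7.22 to 24.8, against 34.9 to 182 CPM. The 4 wt libraries at 9.0 dpc and with PI were lower in these lists, so none of them separates the Skp1a labels from all wt libraries. Single genes do not all follow the sums in Skp1aKO against wt at 9.5 dpc. Of the 8 neural progenitor genes 1 was called higher and 2 lower, with a median log2 fold change of 0.05. Of the 3 trophoblast genes tested 1 was called higher and 1 lower, with a median of 1.61. Yolk sac markers summed to 18.2 to 19.4 CPM under the label Skp1aKO and 7.79 to 33.2 under Skp1acont, against 6.49 to 9.54 CPM in wt at 9.5 dpc. The part of these differences in the results below was not tested.

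Skp1a, which encodes the adaptor that F-boxes bind, checks the labels. Skp1a (ENSMUSG00000036309.14, GRCm38 chromosome 11, 52231995 to 52246858, plus strand) had 199 and 212 CPM under the label Skp1aKO, 303 and 104 under Skp1acont, 273 under Skp1acont PI, 1180 and 1261 under wt PI, 930 and 1136 under wt at 9.5 dpc, and 1209 and 1337 under wt at 9.0 dpc. It was low in all 5 libraries with a Skp1a label and did not separate the libraries labelled Skp1aKO from Skp1acont, where the log2 fold change was 0.01 ± 0.51 (SE; edgeR adjusted p = 1). Against wt at 9.5 dpc it fell by 2.33 ± 0.54 on the log2 scale in the libraries labelled Skp1aKO (edgeR adjusted p = 0.0133) and by 2.34 ± 0.54 in Skp1acont (adjusted p = 0.0141). Where on the gene a deletion would lie is not given, so reads outside it could remain. The other subunits were also lower: against wt at 9.5 dpc, Cul1 had a log2 fold change of -1.77 ± 0.40 and Rbx1 of -2.53 ± 0.65 in the libraries labelled Skp1aKO (edgeR adjusted p = 0.0126 and 0.0192). Of 33 tested genes of the SCF core and its regulators, 20 fell and 0 rose in this comparison, where 18.7% of all genes fell and 17.6% rose. The median log2 fold change of the 33 was -1.61, against 0.24 for all genes. In Skp1acont against wt at 9.5 dpc 17 of the 33 fell and 0 rose, where 17.1% of all genes fell and 19.3% rose, with a median of -1.36. Cul1 had -1.23 ± 0.39 and Rbx1 -1.84 ± 0.64 there (edgeR adjusted p = 0.0369 and 0.0464). In Skp1aKO against Skp1acont 0 of the 33 and 0% of all genes were called, and the median of the 33 was -0.04.

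In wt embryos the F-box genes spanned from 1 abundant member to genes with no reads. Fbxo5, which encodes Emi1, the inhibitor of the anaphase-promoting complex that lets cells enter S phase, had the highest level per length, with 84.9 ± 6.20 CPM per kb of exon (SD, n = 6 wt libraries). It was followed by Fbxo22, whose human product is a receptor for the histone demethylase KDM4A, at 21.7 ± 3.18 CPM per kb and by Fbxo30, a ligase gene of muscle wasting, at 19.2 ± 2.03 CPM per kb. These values of Fbxo22 and Fbxo30 overlap within their SD. Fbxo22 had 25 and 26.3 CPM under the label Skp1aKO, 34.8 and 10.6 under Skp1acont, 24.3 under Skp1acont PI, 57.2 and 62.3 under wt PI, 43.7 and 42.7 under wt at 9.5 dpc, and 51.9 and 53.2 under wt at 9.0 dpc, so that no library with a Skp1a label reached a wt library. Lower in the order, Fbxo45 at 12.3 ± 2.02 and Fbxo3 at 11.6 ± 1.27 CPM per kb likewise overlapped within their SD. In the 5 libraries with a Skp1a label Fbxo5 was again first, at a mean of 28.2 CPM per kb and a range of 7.84 to 35.6. At the other end, 5 genes, Fbxo24, Fbxo39, Fbxw18, Fbxw24 and Fbxw26, had 0 counts in all 6 wt libraries, where 3 counts, the limit that a count of 0 allows, stand for 0.323 to 1.10 TMM-scaled CPM per library. Of the 75 genes, 59 passed the filter on low counts and were tested, and 16 were not. Of the 59, 17 share exon bases with another gene and are uncertain as far as reads of that gene were counted for them, among them Fbxw8 (33.4% of its exon bases), Fbxo22 (15.4%), Fbxo46 (9.54%), Fbxw10 (5.89%) and Fbxl20 (5.57%). Between 20 and 25 of the 75 lay under 2 times the background rate in each wt library, against 31 and 32 in the libraries labelled Skp1aKO, 23 and 51 in Skp1acont and 25 in Skp1acont PI.

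Start regions were compared by their sequence. RefSeq start sites (GRCm38.p6) were matched for 56 of the 75 genes, with 74 entries, and the 150 bases before each start were searched on both strands for 4 motifs. These were the GC box (GGGCGG or CCGCCC), the CCAAT box (CCAAT or ATTGG), the core of an ETS site (GGAAGT or ACTTCC) and the TATA box (TATAAA or TTTATA), none of which contains another. The 4 regions below are shown because their genes carry the results: Fbxo5 is the most abundant, Fbxo8 and Fbxl18 had the smallest p among the F-box genes that fell and rose in the libraries labelled Skp1aKO, and Fbxw19 has the most reads of the Fbxw cluster on chromosome 9. Motifs stand in capitals, and each sequence runs 5′ to 3′ towards the start.
Fbxo5 (chr10:5805466-5805615, minus strand): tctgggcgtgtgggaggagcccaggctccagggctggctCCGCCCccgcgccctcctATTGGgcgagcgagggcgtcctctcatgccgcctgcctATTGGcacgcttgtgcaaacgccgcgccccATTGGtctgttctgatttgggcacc
Fbxo8 (chr8:56551004-56551153, plus strand): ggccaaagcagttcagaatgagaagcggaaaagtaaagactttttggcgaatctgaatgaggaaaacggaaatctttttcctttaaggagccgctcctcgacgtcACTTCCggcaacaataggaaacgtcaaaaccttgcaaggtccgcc
Fbxl18 (chr5:142895239-142895388, minus strand): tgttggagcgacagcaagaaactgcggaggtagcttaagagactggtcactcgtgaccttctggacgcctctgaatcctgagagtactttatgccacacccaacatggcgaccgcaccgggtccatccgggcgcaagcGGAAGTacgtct
Fbxw19 (chr9:109495855-109496004, minus strand): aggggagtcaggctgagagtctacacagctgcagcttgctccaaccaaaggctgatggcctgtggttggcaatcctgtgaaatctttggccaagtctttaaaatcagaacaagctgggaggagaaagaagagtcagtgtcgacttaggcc
The Fbxo5 window held 1 GC box, 3 CCAAT boxes and 12 CpG dinucleotides. The Fbxo8 and Fbxl18 windows each held 1 ETS core, with 9 and 11 CpG, and the Fbxw19 window held none of the 4 motifs and 1 CpG. Over the 74 entries of F-box genes, 44.6% held a GC box, against 28.6% of all 32851 RefSeq entries, while 14.9% held an ETS core against 13.6%, 14.9% a CCAAT box against 24.5% and 0% a TATA box against 7.57%. The 13 entries of the chromosome 9 cluster had 0% with a GC box and a median of 1 CpG, and the 61 other entries had 54.1% and a median of 10. A match is a string of letters, and no binding was measured.

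**Figure D1:**
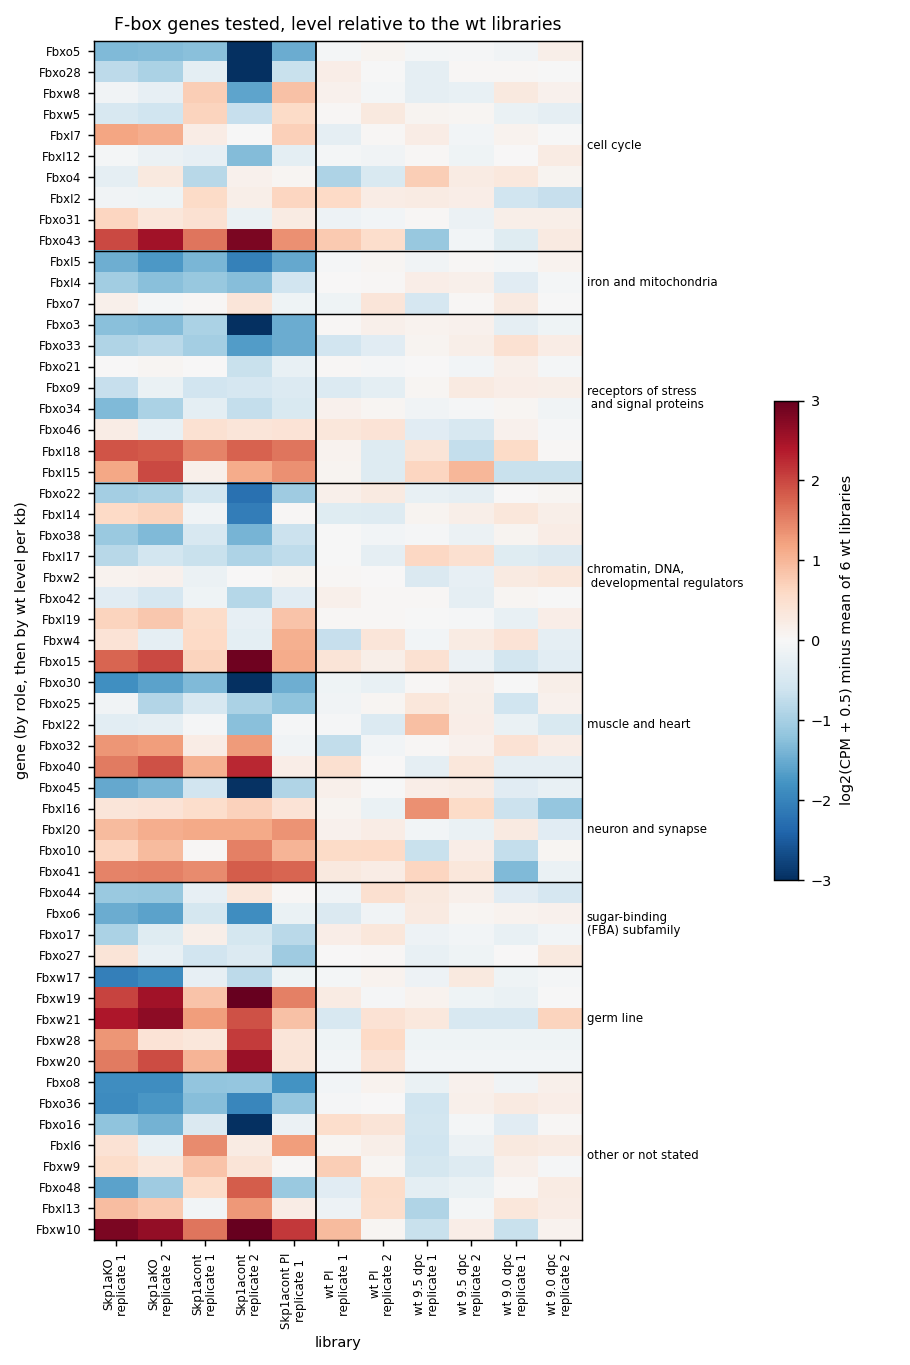
Each cell is the log2(CPM + 0.5) of 1 of 57 of the 59 tested F-box genes (grouped by role down the page) in 1 of the 11 libraries, minus the mean of the 6 wt libraries, on a colour scale from -3 to 3. Genes above and genes below the wt mean stand side by side in most role groups in the 5 libraries with a Skp1a label. The 4 genes drawn as the sugar-binding (FBA) subfamily are mostly below it there, and the deepest blues are those of Skp1acont replicate 2.

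Across libraries, F-box genes separated the Skp1a labels from wt in both directions. Of the 59 tested genes, 8 lay above all 6 wt libraries in all 5 libraries with a Skp1a label and 15 lay below them all, while 21.3% of all tested genes did so in each direction. The 8 above were Fbxl18, Fbxl20, Fbxo15, Fbxo41, Fbxo43, Fbxw10, Fbxw19 and Fbxw21. Of these, Fbxo15, Fbxo41, Fbxo43, Fbxw10, Fbxw19 and Fbxw21 passed the filter on low counts only through libraries with a Skp1a label. Their direction was thus largely fixed by the filter. Among the 15 below were Fbxl4, Fbxl5, Fbxl17, Fbxo3, Fbxo5, Fbxo8, Fbxo22, Fbxo28, Fbxo30, Fbxo33, Fbxo34, Fbxo36, Fbxo38 and Fbxo45. By library totals in place of TMM scaling 18 lay above and 5 below (37.3% and 7.79% of all genes), and the 5 below were Fbxl5, Fbxo5, Fbxo8, Fbxo30 and Fbxo36. Without Skp1acont replicate 2 the counts were 11 and 15 (22.6% and 21.9%).

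Set against wt at 9.5 dpc, the libraries labelled Skp1aKO had 9 F-box genes that rose and 14 that fell of 59 tested (edgeR adjusted p under 0.05). The genes that fell include genes of iron sensing and mitochondria, and those that rose include Fbxl18, Fbxl7, Fbxl20 and the meiotic gene Fbxo43. Of those that rose, Fbxo43, Fbxw10, Fbxw19, Fbxw20 and Fbxw21 passed the filter on low counts only through libraries with a Skp1a label. This largely fixed their direction. Of all 18837 genes tested 36.4% were called, 17.6% higher and 18.7% lower, so the share of F-box genes called was near the background. By subfamily 3 rose and 4 fell of 17 Fbxl genes, 2 rose and 9 fell of 31 Fbxo genes and 4 rose and 1 fell of 11 Fbxw genes. The median log2 fold change of the 59 was -0.05, against 0.24 for all genes. The counts depend on single libraries: 1 F-box gene was called without Skp1aKO replicate 1 (1.91% of all genes), 2 without replicate 2 (4.62%), 6 without wt 9.5 dpc replicate 1 (9.12%) and 0 without replicate 2 (1.53%). Without Skp1acont replicate 2, a library of neither group, 37 were called (67.9%). DESeq2 called 19, 7 higher and 12 lower (33.9% of all genes).

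Among genes of the cell cycle, 2 of 10 tested rose and 0 fell. Fbxl7, whose human product targets Aurora A kinase, had 31.7 and 29.8 CPM under the label Skp1aKO, 16.2 and 13.6 under Skp1acont, 22.9 under Skp1acont PI, 11.4 and 14.0 under wt PI, 16.2 and 12.8 under wt at 9.5 dpc, and 14.9 and 13.6 under wt at 9.0 dpc. It was high in both libraries labelled Skp1aKO, above every other library, while Skp1acont lay at wt levels and Skp1acont PI between. The rise was 2.14-fold (log2 fold change 1.10 ± 0.26, edgeR adjusted p = 0.0147), and with no filter on low counts the call was lost (adjusted p = 0.0639). Fbxo43, the meiotic counterpart of Fbxo5, had 3.85 and 5.74 CPM under the label Skp1aKO, 2.85 and 7.24 under Skp1acont, 2.35 under Skp1acont PI, 1.38 and 1.08 under wt PI, 0 and 0.541 under wt at 9.5 dpc, and 0.346 and 0.830 under wt at 9.0 dpc. All libraries with a Skp1a label were above all wt libraries, and Skp1acont replicate 2 was the highest (log2 fold change 3.62 ± 0.85, adjusted p = 0.0142). Fbxo43 passed the filter on low counts only through libraries with a Skp1a label, which largely fixed this direction. Fbxo5 itself had 67.4 and 68.2 CPM under the label Skp1aKO, 71.3 and 15.7 under Skp1acont, 60.1 under Skp1acont PI, 163 and 180 under wt PI, 163 and 165 under wt at 9.5 dpc, and 158 and 190 under wt at 9.0 dpc. No library with a Skp1a label reached the lowest wt value, yet the test against wt at 9.5 dpc did not pass (-1.27 ± 0.56, adjusted p = 0.0931). In the fit without Skp1acont replicate 2, where the spread is smaller, it did (-1.13 ± 0.18, adjusted p = 8.80e-06).

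Of the 3 genes of iron and mitochondria, Fbxl5 and Fbxl4 fell and Fbxo7, a partner of Parkin, did not pass the test. Fbxl5 encodes the receptor that senses iron and targets the iron regulatory protein Irp2. Its level was 31.9 and 26.9 CPM under the label Skp1aKO, 34.0 and 21.4 under Skp1acont, 30.7 under Skp1acont PI, 87.2 and 92.9 under wt PI, 83 and 92 under wt at 9.5 dpc, and 86.5 and 96.0 under wt at 9.0 dpc. The wt libraries were close to each other and all far above those with a Skp1a label (log2 fold change -1.57 ± 0.32, edgeR adjusted p = 0.0087). Fbxl4, a mitochondrial gene whose human product restrains mitophagy, had 4.71 and 3.97 CPM under the label Skp1aKO, 4.37 and 3.92 under Skp1acont, 6.65 under Skp1acont PI, 10.3 and 10.4 under wt PI, 11.7 and 11.5 under wt at 9.5 dpc, and 7.96 and 9.84 under wt at 9.0 dpc. These groups did not overlap either (-1.41 ± 0.30, adjusted p = 0.0103).

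Fbxo8, which carries a Sec7 domain of the kind found in Arf exchange factors, had the smallest p of the F-box genes that fell. It had 9.20 and 9.05 CPM under the label Skp1aKO, 14.8 and 15.1 under Skp1acont, 9.59 under Skp1acont PI, 32.4 and 37.0 under wt PI, 30.1 and 38.0 under wt at 9.5 dpc, and 32.2 and 38.4 under wt at 9.0 dpc. All 5 libraries with a Skp1a label were far below the lowest wt library, with Skp1acont the highest of the 5. The level was 3.74-fold lower in the libraries labelled Skp1aKO, 9.13 ± 0.106 CPM against 34.1 ± 5.59 CPM in wt at 9.5 dpc (SD, n = 2 each; log2 fold change -1.90 ± 0.26, edgeR adjusted p = 0.00347). Fbxo8 lies on chromosome 8, 56551090 to 56593939 (ENSMUSG00000038206.13). Of the 8 genes of other or unstated role 2 fell and 1 rose, the second that fell being Fbxo36. Fbxo36 had 1.93 and 2.21 CPM under the label Skp1aKO, 3.23 and 1.81 under Skp1acont, 3.52 under Skp1acont PI, 8.27 and 8.60 under wt PI, 5.51 and 9.47 under wt at 9.5 dpc, and 10.4 and 9.96 under wt at 9.0 dpc. Its groups did not overlap either, at low levels throughout (-1.88 ± 0.42, adjusted p = 0.012).

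Among the 5 genes of muscle and heart, 1 fell and 1 rose. Fbxo30 had 27.4 and 32.0 CPM under the label Skp1aKO, 39.0 and 12.1 under Skp1acont, 35.4 under Skp1acont PI, 90.7 and 85.0 under wt PI, 101 and 111 under wt at 9.5 dpc, and 98.6 and 112 under wt at 9.0 dpc. It was low in every library with a Skp1a label (-1.83 ± 0.46, edgeR adjusted p = 0.0181). Fbxo32, which encodes the muscle atrophy ligase atrogin-1, had 8.78 and 8.39 CPM under the label Skp1aKO, 3.80 and 8.45 under Skp1acont, 2.94 under Skp1acont PI, 1.72 and 3.01 under wt PI, 3.30 and 3.52 under wt at 9.5 dpc, and 4.50 and 3.79 under wt at 9.0 dpc. The libraries labelled Skp1aKO were above all wt libraries, while Skp1acont replicate 1 and Skp1acont PI lay among them (1.32 ± 0.46, adjusted p = 0.0478). This call was lost with DESeq2 (adjusted p = 0.0633), with no filter on low counts (edgeR adjusted p = 0.0843) and with the background subtracted (adjusted p = 0.079).

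Of 9 regulators of chromatin, DNA and development, 0 rose and 2 fell. Fbxl17, whose human product checks the pairing of BTB domain proteins, had 10.9 and 13.5 CPM under the label Skp1aKO, 12.4 and 10.3 under Skp1acont, 11.5 under Skp1acont PI, 19.7 and 16.3 under wt PI, 30.8 and 27.9 under wt at 9.5 dpc, and 15.2 and 14.6 under wt at 9.0 dpc. It was below all wt libraries in all 5, by a small margin against wt at 9.0 dpc and a wide one against wt at 9.5 dpc (-1.26 ± 0.26, edgeR adjusted p = 0.0093). Fbxo38 fell by 1.13 ± 0.32 on the log2 scale (adjusted p = 0.0267). Fbxo15, a pluripotency marker gene driven by Oct4 and Sox2, had 7.06 and 8.39 CPM under the label Skp1aKO, 3.04 and 16.3 under Skp1acont, 4.30 under Skp1acont PI, 2.41 and 2.04 under wt PI, 2.57 and 1.49 under wt at 9.5 dpc, and 1.04 and 1.30 under wt at 9.0 dpc. Its groups did not overlap, but the test did not pass (2.01 on the log2 scale, edgeR adjusted p = 0.0516). Without Skp1acont replicate 2 the log2 fold change was 2.19 ± 0.40. Fbxo15 passed the filter on low counts only through libraries with a Skp1a label, which largely fixed this direction.

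Receptors of stress and signal proteins gave 1 of 8 that rose and 2 that fell. Fbxl18, which in human cells targets Fbxl7 for turnover, had 49.7 and 48.4 CPM under the label Skp1aKO, 37.8 and 46.2 under Skp1acont, 40.7 under Skp1acont PI, 14.1 and 9.89 under wt PI, 17.3 and 7.84 under wt at 9.5 dpc, and 19.7 and 13.5 under wt at 9.0 dpc. The lowest library with a Skp1a label was well above the highest wt library, and lot 1 exceeded lot 2 in each wt pair. The rise was 4.04-fold (log2 fold change 2.01 ± 0.39, edgeR adjusted p = 0.00812). Fbxl18 lies on chromosome 5, 142866946 to 142895421 (ENSMUSG00000066640.11). Fbxo33, a receptor for the human Y-box protein YB-1, had 16.3 and 17.7 CPM under the label Skp1aKO, 15.2 and 9.36 under Skp1acont, 10.8 under Skp1acont PI, 20.7 and 24.3 under wt PI, 33.0 and 35.0 under wt at 9.5 dpc, and 42.5 and 36.3 under wt at 9.0 dpc. All 5 libraries with a Skp1a label were below all wt libraries, and wt PI was the lowest wt group. Fbxo33 fell by 1.00 ± 0.29 on the log2 scale (adjusted p = 0.0256), and Fbxo34 by 1.13 ± 0.31 (adjusted p = 0.0237).

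Among the 5 genes of neuron and synapse, Fbxl20 rose and Fbxo45 fell. Fbxl20, the synaptic receptor for Rim1, had 12.6 and 13.9 CPM under the label Skp1aKO, 14.4 and 14.5 under Skp1acont, 16.8 under Skp1acont PI, 6.89 and 7.42 under wt PI, 5.87 and 5.41 under wt at 9.5 dpc, and 7.61 and 4.86 under wt at 9.0 dpc. All libraries with a Skp1a label were above all wt libraries (1.24 ± 0.30, edgeR adjusted p = 0.016). With the background subtracted the call was lost (1.41, edgeR adjusted p = 0.0585). Fbxo45, which works with Mycbp2 in axons and synapses, had 17.3 and 19.2 CPM under the label Skp1aKO, 33.8 and 6.04 under Skp1acont, 27.0 under Skp1acont PI, 56.5 and 50.4 under wt PI, 58.4 and 60.5 under wt at 9.5 dpc, and 39.8 and 43.4 under wt at 9.0 dpc. Skp1acont replicate 2 was the lowest and Skp1acont replicate 1 the highest of the libraries with a Skp1a label (-1.70 ± 0.57, adjusted p = 0.042). The 8 neuron markers summed to 201 to 375 CPM in the libraries labelled Skp1aKO against 678 to 765 CPM in wt at 9.5 dpc, and 4 of the 8 were called lower. Their part in these changes was not tested.

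In the F-box-associated (FBA) domain subfamily, of which some members bind N-glycans, 2 of 4 tested genes fell and 0 rose. Fbxo44 had 3.85 and 3.75 CPM under the label Skp1aKO, 7.41 and 11.5 under Skp1acont, 9.20 under Skp1acont PI, 8.27 and 12.7 under wt PI, 11.01 and 10.01 under wt at 9.5 dpc, and 6.92 and 6.16 under wt at 9.0 dpc. It was low in the libraries labelled Skp1aKO alone of the groups, and Skp1acont lay among the wt libraries (-1.45 ± 0.36, edgeR adjusted p = 0.0164), a call that DESeq2 did not make (adjusted p = 0.0729). Fbxo6, a receptor for misfolded glycoproteins, had 1.71 and 1.55 CPM under the label Skp1aKO, 3.80 and 1.21 under Skp1acont, 4.89 under Skp1acont PI, 4.14 and 5.27 under wt PI, 6.97 and 5.95 under wt at 9.5 dpc, and 6.23 and 6.28 under wt at 9.0 dpc. Skp1acont PI lay between the wt PI values, so that the labels overlap (-1.96 ± 0.52, adjusted p = 0.0201).

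**Figure D2:**
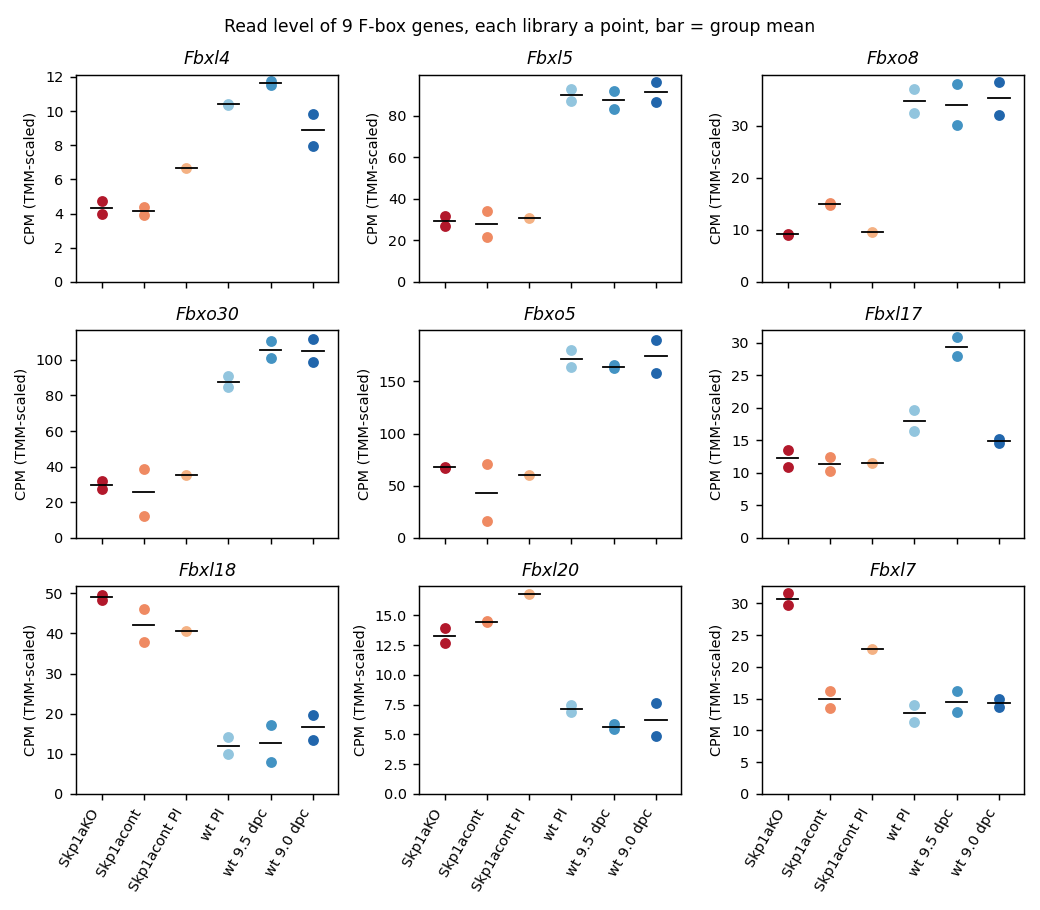
TMM-scaled CPM of 9 F-box genes, with a point for each library and a bar at the mean of its group. Fbxl4, Fbxl5, Fbxo8, Fbxo30, Fbxo5 and Fbxl17 are lower in all libraries with a Skp1a label than in any wt library, Fbxl18 and Fbxl20 are higher, and Fbxl7 is high in the 2 libraries labelled Skp1aKO.

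How the libraries are scaled moves all these values together. By library totals the median log2 fold change of the libraries labelled Skp1aKO against wt at 9.5 dpc was 1.04 over all genes and 0.75 over the 59 F-box genes. Relative to totals, 20 F-box genes rose and 4 fell, against backgrounds of 36.3% and 7.41% of all genes. All 23 genes called under TMM kept their sign, all 9 that rose were still called, and of the 14 that fell 4 were, among them Fbxo8 (-1.10, edgeR adjusted p = 0.0123), Fbxw17 (-1.53, adjusted p = 0.0151) and Fbxl5 (-0.77, adjusted p = 0.0415). With the background rate subtracted from the counts, 4 of the 9 and 7 of the 14 were called (25.7% of all genes). Fbxl20, Fbxw10, Fbxl4, Fbxo36, Fbxo44 and Fbxo6 were among those no longer called (edgeR adjusted p = 0.0585 to 0.0892).

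**Figure D3:**
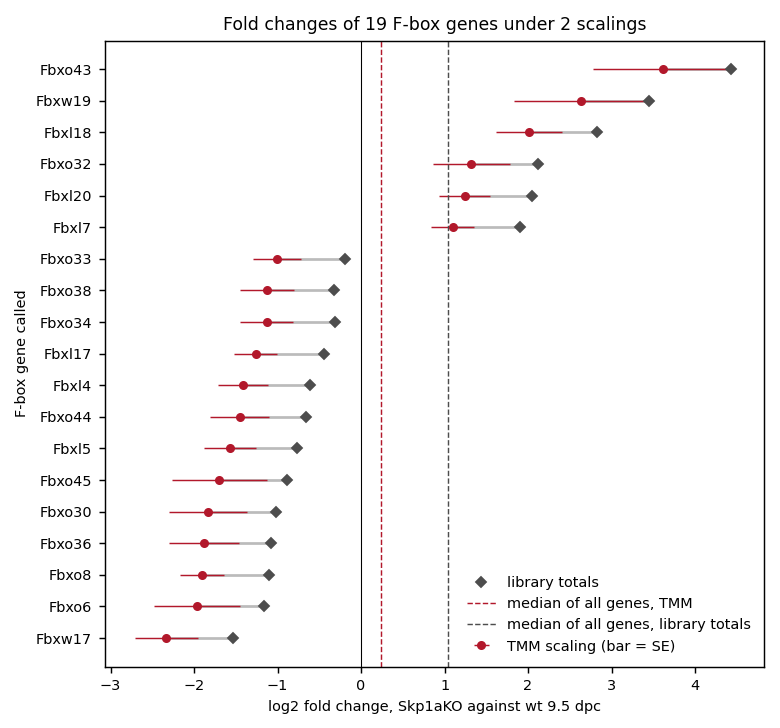
Log2 fold change of 19 called F-box genes in the libraries labelled Skp1aKO against wt at 9.5 dpc, under TMM scaling with SE bars and by library totals, without the 3 genes that had 3 counts or fewer in wt at 9.5 dpc. Each gene keeps its sign and moves up by library totals, as do the dashed medians of all genes at 0.24 and 1.04.

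Skp1acont against wt at 9.5 dpc gave a similar number, with 10 F-box genes that rose and 10 that fell of 59. The background was 36.4% of all genes, 19.3% higher and 17.1% lower, and the medians were -0.16 for F-box genes and 0.34 for all. The 10 that fell include Fbxl5 (-1.65 ± 0.32, edgeR adjusted p = 0.00941), Fbxl17 (-1.36 ± 0.26, adjusted p = 0.00942), Fbxo33 (-1.46 ± 0.29, adjusted p = 0.0102), Fbxl4, Fbxo8, Fbxo30, Fbxo36, Fbxo5 and Fbxo3. DESeq2 did not call Fbxo36 (adjusted p = 0.0659). Fbxo8 was less low than in the libraries labelled Skp1aKO (-1.19 ± 0.26, adjusted p = 0.012), and this difference did not pass its own test, as given below. Fbxo5 fell by 1.91 ± 0.57 on the log2 scale (adjusted p = 0.0305), with 15.7 CPM in Skp1acont replicate 2 and 71.3 CPM in replicate 1, and by 1.08 ± 0.23 without replicate 2 (adjusted p = 0.000751). Fbxo3 had 34.7 and 33.8 CPM under the label Skp1aKO, 43.1 and 8.75 under Skp1acont, 29.4 under Skp1acont PI, 85.8 and 92.8 under wt PI, 89.6 and 91.2 under wt at 9.5 dpc, and 69.5 and 76.8 under wt at 9.0 dpc. It was lower in every library with a Skp1a label, and passed here (-1.78 ± 0.56, adjusted p = 0.0344) but not in the libraries labelled Skp1aKO (-1.40, adjusted p = 0.0675). Without Skp1acont replicate 2 it passed in both, with -0.94 ± 0.23 in Skp1acont and -1.26 ± 0.18 in the libraries labelled Skp1aKO.

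The 10 that rose in Skp1acont were Fbxl18 (1.79 ± 0.39, edgeR adjusted p = 0.0127), Fbxl20 (1.36 ± 0.30, adjusted p = 0.0131), Fbxo43, Fbxo15, Fbxl6, Fbxw9, Fbxo46, Fbxw10, Fbxw19 and Fbxw20. Of these, Fbxo43, Fbxo15, Fbxw10, Fbxw19 and Fbxw20 passed the filter on low counts only through libraries with a Skp1a label. Fbxo15 rose by 2.29 ± 0.72 on the log2 scale (adjusted p = 0.0351), but by 0.83 without Skp1acont replicate 2 (adjusted p = 0.21), and the call of Fbxw19 was lost likewise (1.20, adjusted p = 0.0638). Fbxl6 had 7.28 and 4.42 CPM under the label Skp1aKO, 14.8 and 6.34 under Skp1acont, 13.3 under Skp1acont PI, 5.52 and 6.02 under wt PI, 3.30 and 4.60 under wt at 9.5 dpc, and 6.57 and 6.28 under wt at 9.0 dpc. It was high in Skp1acont replicate 1 and Skp1acont PI, while Skp1acont replicate 2 lay within the wt range (1.40 ± 0.45, adjusted p = 0.0372). Fbxw9 had 7.49 and 6.40 CPM under the label Skp1aKO, 9.31 and 6.64 under Skp1acont, 5.09 under Skp1acont PI, 8.62 and 5.16 under wt PI, 3.30 and 3.65 under wt at 9.5 dpc, and 5.53 and 4.86 under wt at 9.0 dpc. Its Skp1acont values were above wt at 9.5 dpc but not above all wt libraries (1.19 ± 0.39, adjusted p = 0.0387). Fbxo46 had 8.99 and 6.40 CPM under the label Skp1aKO, 10.6 and 9.96 under Skp1acont, 10.2 under Skp1acont PI, 9.65 and 10.3 under wt PI, 5.87 and 5.28 under wt at 9.5 dpc, and 8.30 and 7.35 under wt at 9.0 dpc. It too overlapped with wt PI (0.90 ± 0.30, adjusted p = 0.0437), and the call was lost with the lot as a replicate block (0.88, adjusted p = 0.051). With no filter on low counts the calls of Fbxo46 (adjusted p = 0.174), Fbxl6 (adjusted p = 0.0699) and Fbxw9 (adjusted p = 0.105) were lost. By library totals 18 F-box genes rose and 3 fell (37.7% and 6.61% of all genes), Fbxl5 and Fbxo30 among the 3. Leaving out 1 library gave 40 called genes without Skp1acont replicate 1 (74% of all genes), 19 without replicate 2 (39.1%), 2 without wt 9.5 dpc replicate 1 (2.76%) and 0 without wt 9.5 dpc replicate 2 (0.0709%).

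The comparisons of both labels use the same wt libraries, so their agreement is no independent evidence. Called in both were 14 genes, 8 lower (among them Fbxl4, Fbxl5, Fbxl17, Fbxo8, Fbxo30, Fbxo33 and Fbxo36) and 6 higher (Fbxl18, Fbxl20, Fbxo43, Fbxw10, Fbxw19 and Fbxw20). Of the 6, all but Fbxl18 and Fbxl20 passed the filter on low counts only through libraries with a Skp1a label. Skp1acont PI against wt PI shares no library with either of these comparisons. There the 8 had log2 fold changes of -1.86 to -0.63 with no overlap between the groups, and the 6 had 0.32 to 2.36 with no overlap in 5. This is near the background: of all 2527 genes called lower in both comparisons 97.2% were lower there and 96.5% did not overlap, and of all 2652 called higher 95.7% were higher and 92.7% did not overlap.

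With PI, 0 of 59 F-box genes passed the edgeR test in Skp1acont PI against wt PI, where 0.441% of all genes were called. There was 1 Skp1acont PI library, so its spread is taken from the other groups, and 15 F-box genes had an unadjusted p under 0.05. The smallest p-values were those of Fbxo8 (-1.86 ± 0.34, adjusted p = 0.0505), Fbxl18 (1.78 ± 0.45, adjusted p = 0.0727) and Fbxl5 (-1.55 ± 0.41, adjusted p = 0.0806). Fbxo8 had 9.59 CPM in Skp1acont PI against 32.4 and 37.0 CPM in wt PI, Fbxl18 had 40.7 against 14.1 and 9.89 CPM, and Fbxl5 had 30.7 against 87.2 and 92.9 CPM. DESeq2 called 3 F-box genes and 9.28% of all genes. Without Skp1acont replicate 2, which is in neither group, edgeR called 22 and 43.2% of all genes. The difference between the Skp1acont effect with and without PI was tested directly, and 0 F-box genes and 0% of all genes passed.

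The libraries labelled Skp1aKO and Skp1acont were not told apart by any F-box gene at the threshold. Of 59 genes 0 passed, with 6 at an unadjusted p under 0.05, and 0% of all 18837 genes passed; DESeq2 also called 0 F-box genes and 0.51% of all genes. The smallest p-values were those of Fbxw17 (log2 fold change -1.71 ± 0.39, edgeR adjusted p = 0.33), Fbxo48 and Fbxl7 (1.04 ± 0.26, adjusted p = 0.356). Fbxo48 had 1 count over the libraries labelled Skp1aKO and 25 over Skp1acont, 9 in replicate 1 and 16 in replicate 2. That is a ratio of 0.0373 with a 95% counting interval of 0.000908 to 0.228, which leaves out the spread between libraries (edgeR adjusted p = 0.348). Fbxo48 passed the filter on low counts only through Skp1acont replicate 2, which largely fixed this direction. The Skp1acont libraries differ so much that each alone gives another answer. Against Skp1acont replicate 2 alone 20 F-box genes were called (31.3% of all genes) and against replicate 1 alone 12 were (27.3%). In each of these fits the lone Skp1acont library is assumed to vary like the other groups.

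Of 54 F-box genes tested in both fits, 3 were called against each Skp1acont library in the same direction and 4 in opposite directions, where 1.99% and 9.62% of all genes were. Both fits use the same Skp1aKO libraries. Fbxl14, a receptor for the Snail repressor, had 43.2 and 44.8 CPM under the label Skp1aKO, 26.2 and 6.34 under Skp1acont, 29.0 under Skp1acont PI, 21.7 and 21.5 under wt PI, 29.7 and 31.9 under wt at 9.5 dpc, and 35.6 and 31.9 under wt at 9.0 dpc. The libraries labelled Skp1aKO were the highest of all, and the log2 fold change was 2.77 ± 0.22 against Skp1acont replicate 2 and 0.76 ± 0.23 against replicate 1. Fbxl7 gave 1.16 ± 0.24 and 0.95 ± 0.26, and Fbxw17 gave -1.39 ± 0.43 and -1.94 ± 0.42. Fbxo15, Fbxo45, Fbxw8 and Fbxw19 turned direction with the control library: Fbxo45 gave 1.57 against replicate 2 and -0.87 against replicate 1, and Fbxw19 gave -1.27 and 1.58. Fbxw8, the receptor that pairs with Cul7, stood at 16.1 and 14.4 CPM under the label Skp1aKO against 29.3 and 5.43 under Skp1acont.

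A cluster of 15 Fbxw genes, several of them known from oocytes, lies on chromosome 9 between 109139447 and 109790670, all on the minus strand. Of these, 14 are annotated as protein-coding and 1, Fbxw23, as a transcribed pseudogene. They are related tandem copies whose similarity was not measured here, so reads may be split among them and their single values are uncertain. Reads on the cluster were 91 and 112 in the libraries labelled Skp1aKO, 39 and 132 in Skp1acont, 49 in Skp1acont PI, 7 and 30 in wt PI, 8 and 17 in wt at 9.5 dpc and 9 and 33 in wt at 9.0 dpc. At least 1 read fell on 15 and 15 of the 15 genes in the libraries labelled Skp1aKO, on 12 and 15 in Skp1acont, on 14 in Skp1acont PI and on 2 to 9 in the wt libraries. Scaled by library totals, the median of the 15 genes was 0.463 and 0.657 CPM per kb in the libraries labelled Skp1aKO, 0.157 and 0.851 in Skp1acont, 0.162 in Skp1acont PI and 0 to 0.0591 in wt. Set against the background rate of the same library, these medians were 0.772 and 0.855 times as high under the label Skp1aKO, 0.606 and 0.683 under Skp1acont, 0.603 under Skp1acont PI and 0 to 0.624 under wt. The cluster median was thus at or under the chemoreceptor rate in all 11 libraries.

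**Figure D4:**
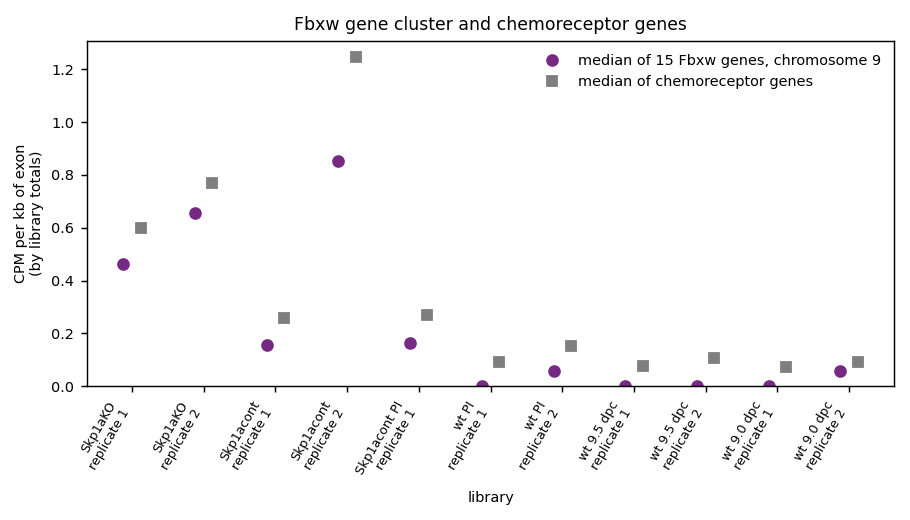
Median CPM per kb of exon of the 15 Fbxw genes of the chromosome 9 cluster (circles) and of 1770 chemoreceptor genes (squares) in each library. Both are high in the same libraries, and the cluster median, at most 0.855 times the chemoreceptor median, lies below it in all 11.

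Only 4 of the cluster genes passed the filter on low counts. All 4 passed only through libraries with a Skp1a label, where they are high, so the direction of their calls was largely fixed by the filter. Fbxw20 and Fbxw21 had 0 to 2 and 0 to 5 counts in the wt libraries. Fbxw19, Fbxw20 and Fbxw21 were called higher in the libraries labelled Skp1aKO against wt at 9.5 dpc. Fbxw19 (ENSMUSG00000074061.4, 109476654 to 109495875) had 8.35 and 11.9 CPM under the label Skp1aKO, 3.42 and 24.1 under Skp1acont, 5.67 under Skp1acont PI, 2.07 and 1.61 under wt PI, 1.84 and 1.49 under wt at 9.5 dpc, and 1.38 and 1.66 under wt at 9.0 dpc. All libraries with a Skp1a label were above wt (log2 fold change 2.63 ± 0.80, edgeR adjusted p = 0.0313), with the same order among them as the background rate. With the background subtracted the call was lost (edgeR adjusted p = 0.0629). As a multiple of that rate Fbxw19 was 5.18 and 6.68 in the libraries labelled Skp1aKO, 4.72 and 7.94 in Skp1acont, 7.50 in Skp1acont PI and 2.51 to 5.44 in wt. Fbxw21 had 3.21 and 3.97 CPM under the label Skp1aKO, 1.14 and 2.11 under Skp1acont, 0.783 under Skp1acont PI, 0 and 0.430 under wt PI, 0.367 and 0 under wt at 9.5 dpc, and 0 and 0.593 under wt at 9.0 dpc. Its counts were 33 in the libraries labelled Skp1aKO and 1 in wt at 9.5 dpc, a ratio of 36.3 with a 95% counting interval of 6.08 to 1476. Fbxw20 had 5 and 7 counts in the libraries labelled Skp1aKO against 0 and 0 in wt at 9.5 dpc, 12 in all, at least 4.40-fold higher with a floor of 3 counts over the group. Its call (edgeR adjusted p = 0.0446) was lost with DESeq2 (adjusted p = 0.0744) and with size factors in edgeR (adjusted p = 0.0503). Fbxw10, outside the cluster, had 5.14 and 4.42 CPM under the label Skp1aKO, 1.90 and 8.75 under Skp1acont, 2.94 under Skp1acont PI, 1.03 and 0.323 under wt PI, 0 and 0.406 under wt at 9.5 dpc, and 0 and 0.356 under wt at 9.0 dpc. That is 44 counts in the libraries labelled Skp1aKO against 3 in wt at 9.5 dpc, a ratio of 16.1 (5.17 to 81.2). The 8 oocyte markers summed to 2.47 to 9.63 CPM in the libraries with a Skp1a label and 0.593 to 1.08 CPM in wt, where 2 of the 8 were at 0. In Skp1acont PI, too, 2 of the 8 were at 0. The background rate was also higher in the libraries with a Skp1a label, and its part in these sums was not tested.

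Fbxw17, also listed among the germ-line genes but on chromosome 13 (50417864 to 50433780, ENSMUSG00000037816.10), went the other way. It had 1.71 and 1.99 CPM under the label Skp1aKO, 7.22 and 4.83 under Skp1acont, 7.83 under Skp1acont PI, 8.27 and 9.36 under wt PI, 7.71 and 10.8 under wt at 9.5 dpc, and 7.96 and 8.30 under wt at 9.0 dpc. It was low in the libraries labelled Skp1aKO, while Skp1acont replicate 1 and Skp1acont PI were close to wt. Against wt at 9.5 dpc the log2 fold change was -2.33 ± 0.38 (edgeR adjusted p = 0.00468), the widest change among the 14 genes that fell. In multiples of the background rate it stood at 0.971 and 1.02 in the libraries labelled Skp1aKO, 9.11 and 1.45 in Skp1acont, 9.44 in Skp1acont PI and 13.3 to 21.5 in wt, so its reads in the libraries labelled Skp1aKO were at the background.

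Between the wt stages, 1 F-box gene rose in the fit of all groups, Fbxl16. Its level was 9.91 and 5.55 CPM at 9.5 dpc against 2.08 and 1.30 CPM at 9.0 dpc, while wt PI stood at 3.79 and 3.01 CPM. The stages did not overlap, and wt PI lay between them. The log2 fold change was 2.22 ± 0.46 (edgeR adjusted p = 0.048), 1 of 59 genes against 1.6% of all genes. DESeq2 also called 1 F-box gene, and 2.81% of all genes. The edgeR call of Fbxl16 was lost with size factors, with no filter, with a filter of 1 CPM, with the lot as a replicate block in the fit of all groups and with the background subtracted (adjusted p = 0.0506 to 0.118). Cell type markers differed between the stages as well. The 8 neuron markers summed to 678 to 765 CPM at 9.5 dpc against 105 to 117 CPM at 9.0 dpc, and 6 of the 8 were called higher. Neural progenitor markers summed to 1474 to 1671 against 334 to 367 CPM (1 of 8 called higher), and erythroid markers to 17832 to 23713 against 9593 to 9785 CPM. Trophoblast markers summed to 34.9 to 182 against 4.84 to 6.64 CPM (1 of the 3 tested called higher). Head mesenchyme markers summed to 511 to 595 against 359 to 379 CPM, and 2 of 8 were called higher. Yet the median log2 fold change of these 8 was -0.40, against -0.03 for all genes. The part of these markers in the stage differences was not tested.

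The wt libraries of the same lot deviate together, so the 6 wt libraries were also fitted alone with the lot as a block. In that paired fit 8 of the 47 F-box genes tested rose and 3 fell at 9.5 dpc against 9.0 dpc, where 18.8% and 22.8% of all genes did. Without the block 7 rose and 1 fell (15% and 16.7%). With the block Fbxl16 rose by 2.17 ± 0.35 on the log2 scale (edgeR adjusted p = 7.33e-05) and Fbxl17 by 0.98 ± 0.14 (adjusted p = 2.52e-05). Fbxl22, a gene of the cardiac sarcomere, stood at 19.1 and 11.6 CPM at 9.5 dpc against 8.65 and 7.11 CPM at 9.0 dpc and rose by 0.89 ± 0.20 (adjusted p = 0.0013), and Fbxo45 by 0.53 ± 0.11 (adjusted p = 0.000691). Fbxl2, Fbxo3 and Fbxo44 also rose. Fbxw2, whose human product targets the placental factor GCM1, stood at 19.1 and 21.8 CPM at 9.5 dpc against 31.1 and 32.6 CPM at 9.0 dpc and fell by 0.60 ± 0.13 (adjusted p = 0.00134). Fbxl18 and Fbxw8 fell as well. In the fit of all groups the call of Fbxl16 was lost without any 1 of the 4 libraries compared, and without Skp1acont replicate 2 there were 6 calls (17.7% of all genes).

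**Figure D5:**
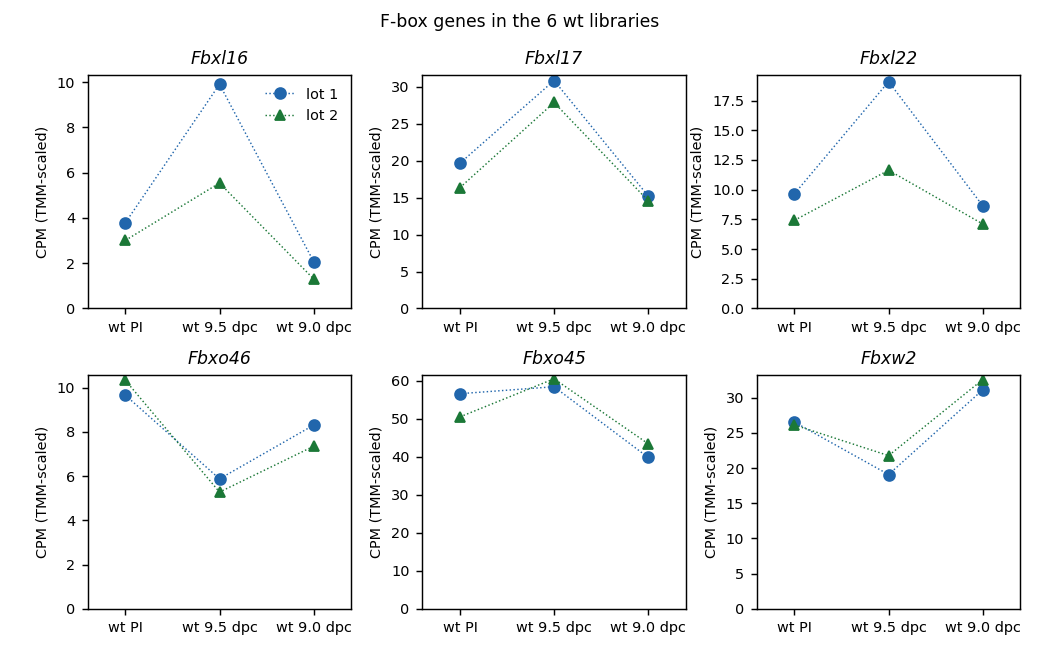
TMM-scaled CPM of 6 F-box genes in the 6 wt libraries, with lines joining libraries of the same lot. Fbxl16, Fbxl17, Fbxl22 and Fbxo45 are higher and Fbxw2 is lower in wt at 9.5 dpc than in wt at 9.0 dpc in both lots, and Fbxo46 is higher in wt PI than in wt at 9.5 dpc in both.

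In wt PI against wt at 9.5 dpc, 0 of 59 F-box genes passed in the fit of all groups, where 0.069% of all genes did, and 5 had an unadjusted p under 0.05. DESeq2 called 0 (1.12% of all genes), and edgeR without Skp1acont replicate 2 called 6 (13.9%). The smallest p-values belonged to Fbxo46 (0.86, edgeR adjusted p = 0.445), Fbxl17 (-0.71, adjusted p = 0.455) and Fbxl16 (-1.17, adjusted p = 0.461). Fbxo46 stood at 9.65 and 10.3 CPM with PI against 5.87 and 5.28 CPM without it, and Fbxl17 at 19.7 and 16.3 CPM with PI against 30.8 and 27.9 CPM without it. Neither pair of groups overlapped. In the paired fit of the wt libraries 4 F-box genes rose and 9 fell (21% and 17.9% of all genes), against 3 and 6 (15.6% and 12.4%) without the block. Fbxo46 rose by 0.90 ± 0.22 on the log2 scale (adjusted p = 0.00366), and Fbxo22, Fbxo16 and Fbxw9 rose too. Fbxl17 fell by 0.73 ± 0.14 (adjusted p = 0.00038) and Fbxl16 by 1.06 ± 0.29 (adjusted p = 0.0081), as did Fbxl14, Fbxl22, Fbxo4, Fbxo9, Fbxo30 and Fbxo33. Both wt comparisons use the wt 9.5 dpc libraries, and for Fbxl17 these were the highest of the 6 wt libraries. The marker sums differed here too. With PI against without it, erythroid markers summed to 9453 to 11935 against 17832 to 23713 CPM, neural progenitor markers to 479 to 502 against 1474 to 1671 CPM, neuron markers to 285 to 294 against 678 to 765 CPM, head mesenchyme markers to 349 to 385 against 511 to 595 CPM and trophoblast markers to 4.48 to 5.05 against 34.9 to 182 CPM. Their part in the F-box changes was not tested.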

How the data were processed

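Poly(A) RNA was selected with the NEBNext module after Qiagen RNeasy extraction, per the labels' protocols, and the authors deposited whole-number read counts per gene with no normalization. The submitters' processing notes name Trim Galore 0.6.7 and GRCm38. Aligner, counter and strand setting: not given in the sources used here. Of 12 labelled libraries 11 were used, and the second Skp1acont PI library was not analysed here. Floors of 3 counts were 0.323 to 1.10 TMM-scaled CPM per library, and intervals (95%) and floors hold counting error alone.

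The test was edgeR 4.0.16 (R 4.3.3): filterByExpr by group (18837 genes), TMM, robust quasi-likelihood F test in 1 fit of 6 groups, two-sided, Benjamini-Hochberg adjusted over all genes, called at adjusted p under 0.05. CPM values are TMM-scaled unless library totals are named. The lone Skp1acont PI library is assumed to vary like the others. A fit of the 6 wt libraries tested 13126 genes. Alternatives were DESeq2 1.42.0, its size factors, library totals, other filters on low counts, the legacy quasi-likelihood method, background subtraction, the lot as a block and leaving out libraries. Same-lot libraries deviated together from their group means in each of the 3 pairs of wt groups (r = 0.297 to 0.343 across genes), but less in the 7 pairs with a Skp1a label (r = -0.0107 to 0.180). Lots were therefore used to pair wt libraries, on this evidence since no label states a pairing. The wt libraries of lot 1 had 3392251 to 4007663 counts and those of lot 2 had 9217568 to 11607085. In wt, lot and depth thus cannot be told apart. Exon lengths and positions came from GENCODE M21, promoter sequences from RefSeq GRCm38.p6.

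Each library is given for the 10 called F-box genes of smallest p in each direction against wt at 9.5 dpc, 3 to 5 in other comparisons and the most abundant. Genes beyond this rule, among them Fbxl14, Fbxw8 and Fbxw2, were chosen after their values were seen. The members and gene lists were chosen with earlier results of these data known. Counts cover all tested F-box genes, and the values of 1 gene are not reported here. The procedure was tested on simulated data.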

Additional observations from a re-analysis of the deposited data

How the results depend on the processing

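No named F-box gene changed sign under any alternative in a comparison that had called it. Over pairs of an alternative and a comparison, the number of called F-box genes moved by over 1.5 times in 39 and not in 62. Numbers that stayed at 0 are among the 62, and those that went to or from 0 among the 39. For all genes called, without the difference of the Skp1acont effects, 50 pairs moved and 33 did not. In Skp1aKO against wt at 9.5 dpc 12 were called with the background subtracted, 37 in a fit of the compared groups alone and 0 to 37 with 1 library left out, and in Skp1acont against wt 11, 0 and 0 to 40. The lot as a replicate block in the fit of all groups gave 24 and 21. In Skp1acont PI against wt PI 2 were called with DESeq2 size factors, 4 by library totals, 3 by DESeq2, 2 with a filter of 1 CPM, 1 by the legacy method, 2 with the background subtracted and 0 to 22 with 1 library left out. Skp1aKO against Skp1acont gave 0 to 20, and the difference of the Skp1acont effects 0 to 19. In wt at 9.5 dpc against 9.0 dpc 0 were called with size factors, no filter, a 1 CPM filter, the lot as a replicate block in the fit of all groups or the background subtracted, against 8 in the fit of wt libraries, 11 in that fit with the block, 5 in the fit of the compared groups and 0 to 6 with 1 library left out. In wt PI against wt at 9.5 dpc these last 4 were 9, 13, 9 and 0 to 6. By library totals 18 F-box genes lay above and 5 below all wt libraries (37.3% and 7.79% of all genes). The number of all genes called moved too, so counts given without a share of all genes are no result about F-box genes. The cause of these moves was not tested. The biological coefficient of variation was 35.3% over all groups and 19.4% without Skp1acont replicate 2. With 2 libraries a group, and counts under 10 for many Fbxw genes, differences that are not small can also go uncalled in the fit of all groups. In counts simulated with the spread of that fit, few genes were changed, all drawn from genes with a mean of over 20 counts. Of 100 genes changed 2-fold, 1 to 5 were called in the comparisons with 2 libraries in each group. Of 100 genes changed 4-fold, 47 to 56 were. These shares do not cover genes with fewer counts, or comparisons in which many genes change.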
